A study of Mus musculus with 24 samples.

Results

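P19 cells grown in suspension were compared at the stage labelled D2 with the same culture at the stage labelled D1. P19 is a clonal mouse embryonal carcinoma line, a tumour-derived stem cell line that can be turned into nerve, heart and skeletal muscle cells in culture. The comparison takes all 3 RNA samples whose titles name suspension D2 and all 3 whose titles name suspension D1, 6 of the 12 RNA samples of the series. Both groups were grown in suspension, in alpha medium with 2.5% fetal bovine and 7.5% calf serum. What D stands for is not written out in the labels, which name no inducer either, so the word stage stands here for these labels alone. The other 6 samples are monolayer cultures of the same line in the same medium, 3 at D2 and 3 at D1. Each RNA was read on 2 Affymetrix chips, MOE430A and MOE430B, which gave 12 arrays of suspension RNA among 24. The series asks how aggregation of the cells changes their transcripts. The labels do not say that replicates were separate cultures, so p-values measure the spread between these samples, which may be technical.

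Embryonal carcinoma cells resemble the pluripotent epiblast, and they stay undifferentiated as long as factors such as Oct4 (gene Pou5f1), Sox2 and Nanog are expressed. In suspension the cells stick to each other and form aggregates, and aggregates treated with retinoic acid or dimethyl sulfoxide are the classical route from P19 to neurons or muscle. Cells inside an aggregate also meet other supplies of oxygen, nutrients and growth factors than cells on a plate. Expression of stress genes, of growth factor feedback genes and of the cell cycle is therefore of interest in such cultures.

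The labelled cell type was borne out by its markers. All 9 embryonal carcinoma markers (Pou5f1, Sox2, Nanog, Sall4, Utf1, Tdgf1, Dnmt3b, Lin28a and Trim71) lay above the 90th percentile of their chip's signals on every suspension array. The median signal per suspension array ran between 511 and 637 on MOE430A and between 815 and 923 on MOE430B, and suspension D1 replicate 2 had the lowest on both chips. The 18S ribosomal RNA control on MOE430A read 60085 ± 3424 at D2 and 56079 ± 12666 at D1 (SD, n = 3; two-sided exact permutation p = 0.7). The probe set for the B1 repeat, a short interspersed element that is also present in the introns and ends of many transcripts, read 12247 ± 3949 at D2 and 31163 ± 7106 at D1 on MOE430A (SD, n = 3), a 2.61-fold lower signal at D2. Its groups did not overlap on either chip, and the exact permutation p was 0.1, the smallest that 3 against 3 can give. In monolayer the same B1 probe set averaged 14815 at D2 and 34975 at D1. The ratio of the 3' to the 5' beta-actin control, a sign of RNA integrity, was 1.07 ± 0.04 at D2 and 1.29 ± 0.04 at D1 on MOE430B (SD, n = 3; exact permutation p = 0.1), without overlap, and its groups overlapped on MOE430A. The part of these control signals in the gene values below was not tested. Wash batches of the arrays were inferred from the fluidics station and the time in the hybridization date field of the array records. The calendar date was not used, and the records do not name these batches. Arrays with a time after noon formed 1 batch, called the later one, and the other arrays were split by station. Each of these 3 batches held 1 suspension sample of either stage. The first paired D2 replicate 1 with D1 replicate 2, the second D2 replicate 2 with D1 replicate 1, and the third both replicates 3, and within-batch differences are given in that order.

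Across 26516 probe sets, limma called none different between D2 and D1 in suspension, 0% of those tested at an adjusted p under 0.05. The smallest adjusted p was 0.352, and 1555 probe sets had an unadjusted p under 0.05, of which 897 were higher and 658 lower at D2, where 1326 are expected by chance. Over the 12727 genes, each represented by 1 probe set, the median log2 difference was 0.03 and the median standard error 0.27. A log2 difference is the mean log2 signal at D2 minus that at D1, so a value of 1 is 2-fold. For 8569 genes (67.3%) the 95% confidence interval lay within a 2-fold change in either direction, and the median half-width of the interval was 0.57. By the fitted value alone 198 genes were over 2-fold higher and 126 over 2-fold lower at D2. Groups that did not overlap were found for 797 genes higher at D2 (6.26%) and 741 lower (5.82%), the background against which the counts below are read. Every value below is therefore a measured difference of these 6 samples that did not pass the test over all probe sets, and the genes are described by their signals.

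**Figure D1:**
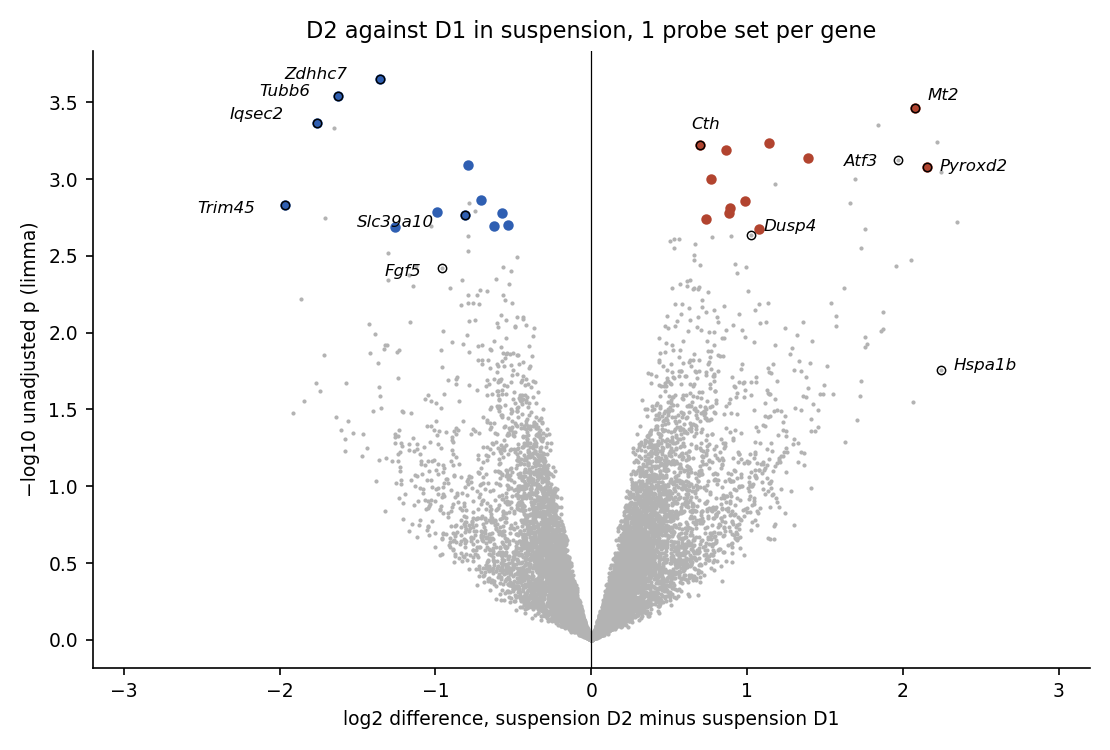
Log2 difference between suspension D2 and suspension D1 (x axis) against the −log10 of the unadjusted limma p (y axis), 1 point per gene (12727 genes). Red and blue points are the 12 genes of each direction with the lowest p among bright genes whose groups did not overlap, and open circles mark named genes. Mt2 stands at 2.08 on the right and Zdhhc7 at -1.35 on the left, and no point corresponds to an adjusted p under 0.05.

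The lowest p among bright, non-overlapping genes on the higher side belonged to Mt2, which encodes metallothionein 2, a small protein that binds zinc and copper and is induced by metals, glucocorticoids and hypoxia. Mt2 had signals of 13481, 9065 and 7058 in the D2 samples, against 1357, 4878 and 1628 in the D1 samples. All D2 signals were above all D1 signals, and D1 replicate 2 stood well above the other two D1 samples. The log2 difference was 2.08 ± 0.44 (SE), with an adjusted p of 0.684 in limma and a 95% interval of 1.13 to 3.03. In the 3 wash batches of the arrays, each with 1 sample of either stage, Mt2 differed by 1.46, 2.69 and 2.08. The neighbouring gene Mt1, chosen after its values were seen, had signals of 17011, 17453 and 6534 at D2 and 1607, 6740.2 and 1278 at D1, and here the lowest D2 sample and the highest D1 sample overlapped. Slc39a10, which encodes the zinc importer ZIP10, was among the 12 genes of the lower side. It read 21884, 12413 and 12749 at D2, against 26823, 28822 and 24316 at D1, a log2 difference of -0.81 ± 0.21 without overlap (adjusted p = 0.745). Both tested Slc39a10 probe sets had values below 0, -0.81 and -0.33. In monolayer, whose samples are separate, Mt2 differed by 1.33 and Slc39a10 by -1.05 between D2 and D1.

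Metallothionein promoters are known for metal response elements, short sites bound by the zinc-sensing factor MTF-1. The 250 bases before the start of Mt2 are shown because this gene had the lowest p of the higher side. They lie at chr8:94172368-94172617 on the plus strand of GRCm38.p6 (RefSeq), and capitals mark matches to the core letters TGCACNC or TGCGCNC on either strand.
Mt2: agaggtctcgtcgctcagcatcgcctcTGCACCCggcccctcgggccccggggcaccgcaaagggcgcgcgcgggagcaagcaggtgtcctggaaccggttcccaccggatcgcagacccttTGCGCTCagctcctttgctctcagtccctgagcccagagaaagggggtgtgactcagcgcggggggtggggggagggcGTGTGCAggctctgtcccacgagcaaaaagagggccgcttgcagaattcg
There were 3 matches, the one nearest the start beginning 50 bases before it. A match to these letters occurred in 23.8% of the 27025 genes whose promoters were searched, so it is common, and it describes the sequence only.

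Genes controlled by ATF4, the transcription factor that answers amino acid shortage and endoplasmic reticulum stress, mostly lay above 0. Of 29 measured list members 26 were above 0, where 53.6% of all genes were, and 0 passed in either direction. The list median was 0.38, against 0.03 over all genes. Without overlap 8 members were higher (27.6%, against 6.26% of all genes) and 1 lower (3.45%, against 5.82%). Per sample, the median member stood at -0.03, 0.40 and 0.15 (centred log2 units) at D2 and at -0.19, 0.02 and -0.37 at D1. D2 replicate 1 lay below D1 replicate 2, so the list levels overlapped. Within the wash batch that paired those 2 samples the list median was -0.09, against 0.62 and 0.60 in the other batches.

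Among its enzymes Cth, which encodes cystathionine gamma-lyase and makes cysteine, read 4966, 6437 and 6419 at D2 and 3526, 3753 and 3572 at D1. The D1 samples were close together and all D2 samples stood above them, a log2 difference of 0.70 ± 0.16 (adjusted p = 0.684). Gpt2, a mitochondrial alanine aminotransferase, read 3887, 5635 and 6118 at D2 and 1845, 3743 and 4009.5 at D1, with D1 replicates 2 and 3 close to the lowest D2 sample. The asparagine synthetase gene Asns, taken from the list after its values were seen, read 20498, 25509.6 and 30554 at D2 and 16597, 19474 and 16904 at D1, a difference of 0.51 ± 0.20 without overlap. The serine synthesis genes of the list stayed near 0, with Phgdh at 0.00, Psat1 at 0.09 and Psph at 0.13 (log2 difference, each chosen after its values were seen). Among the transcription factors, Atf3, an early stress factor, read 799, 1364 and 880.2 at D2 and 98.9, 542 and 159 at D1, a difference of 1.97 ± 0.46 without overlap. All its D1 signals were below 599.8, the median signal of MOE430A over all arrays, so the size of the difference is uncertain. In the 3 wash batches Atf3 differed by 0.52, 3.24 and 2.15. Ddit3, which encodes the pro-apoptotic factor CHOP, read 683, 2219.9 and 2176 at D2 and 102, 979 and 588 at D1, and D2 replicate 1 lay inside the D1 range. Atf4 itself read 17019.8, 19455 and 26142 at D2 and 16468, 14934 and 16584 at D1, a difference of 0.36 ± 0.17 without overlap, while its second probe set stood at 0.00.

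Endoplasmic reticulum chaperones and tRNA synthetases, which often accompany ATF4 targets, stayed close to all genes. Of 29 measured chaperone and unfolded protein genes 18 were above 0, with a median of 0.08, and D2 replicate 2 was the highest sample for 17 of them. Crebrf, a regulator of the unfolded protein response, read 1304, 2034 and 1466 at D2 and 677, 1509 and 518 at D1, and Syvn1, a ubiquitin ligase for misfolded proteins, 7058, 10676 and 8035 at D2 and 6428, 8265 and 3305 at D1, with overlap in both and a Crebrf probe set at -0.07. Sec61b, a subunit of the translocation channel, stood at -0.26 ± 0.12, lower without overlap. Of 22 tRNA synthetase genes 13 were above 0 with a median of 0.02. The serine and glycine enzymes Sars (0.58 ± 0.26) and Gars (0.33 ± 0.18) overlapped between stages, while the asparagine and cysteine enzymes Nars (0.30 ± 0.15) and Cars (0.32 ± 0.14) were higher without overlap.

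ATF4 acts through a composite element shared with C/EBP factors. The letters TGATGNAA were searched on both strands of the 250 bases before the start, and 6 of the 26 measured list genes with a promoter sequence held them (23.1%), against 3.91% of all genes. These stretches show the 6 matches, in capitals, with up to 25 bases on either side (RefSeq, GRCm38.p6). They were chosen because the list stood high among the lists of this comparison. The list was made of genes controlled by ATF4, so its share of matches describes the sequences only. The positions are chr6:7693210-7693257 (minus strand) for Asns, chr1:191183411-191183468 (minus) for Atf3, chr2:119351024-119351081 (plus) for Chac1, chr8:94386292-94386349 (plus) for Herpud1, chr7:126625548-126625605 (minus) for Nupr1 and chr19:27216795-27216852 (plus) for Vldlr.
Asns: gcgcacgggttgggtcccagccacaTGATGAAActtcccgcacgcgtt
Atf3: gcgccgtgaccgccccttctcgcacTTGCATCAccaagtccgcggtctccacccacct
Chac1: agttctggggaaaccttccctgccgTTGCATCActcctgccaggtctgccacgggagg
Herpud1: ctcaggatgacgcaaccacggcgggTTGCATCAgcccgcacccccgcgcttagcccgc
Nupr1: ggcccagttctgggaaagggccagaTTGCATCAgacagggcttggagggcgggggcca
Vldlr: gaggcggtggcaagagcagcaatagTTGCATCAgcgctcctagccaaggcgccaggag
The log2 differences of these 6 genes were 0.51, 1.97, 0.74, 0.28, 0.43 and 0.71 in that order, so all were above 0, from a list in which 26 of 29 were. Chac1, which encodes a glutathione-degrading enzyme, read 2703, 3903 and 7732 at D2 and 2752, 2915 and 2159 at D1, with D2 replicate 1 inside the D1 range. In Nupr1 the D2 signals ran over a wide range, 48.5, 909 and 150.4, against 229, 206 and 58.0 at D1.

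Hspa1b, which encodes an inducible cytosolic HSP70, was far brighter in 2 of the 3 D2 samples. It read 8052, 8566 and 386 at D2, against 873, 471 and 542 at D1. D2 replicates 1 and 2 were far above every D1 sample and D2 replicate 3 was below all of them. The log2 difference was 2.25 ± 0.83 (adjusted p = 0.841) with 95% limits of 0.46 to 4.04. With D2 replicate 3 left out, 2 probe sets passed in limma, and both were of Hspa1b, at 3.66 (adjusted p = 0.0121) and 3.03 (adjusted p = 0.0269). This gene has a near-identical copy, Hspa1a, and the array probes may read both. In monolayer Hspa1b read 594, 563 and 368 at D2 and 816, 355 and 1211 at D1.

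The heat shock list as a whole did not share this pattern. Of 19 measured members of the list, Hspa1b included, 13 were below 0, the median was -0.22 and 0 passed in either direction. Hspb1, which encodes the small heat shock protein HSP27, read 7050.1, 8250.4 and 7837 at D2 and 6279.5, 4386 and 5954 at D1, and the cochaperone gene Dnajb1 5351, 4199.7 and 3491 at D2 and 3311, 2880.2 and 3298 at D1, both higher without overlap. Their other probe sets stood at -0.04 and -0.18. The mitochondrial chaperonin gene Hspe1 read 25849.5, 21609 and 25186 at D2 and 32311, 27237 and 35674 at D1, lower without overlap. In all 4 members were lower without overlap (21.1%, against 5.82% of all genes) and 2 higher (10.5%, against 6.26%). The lower ones were Hspe1, Hspa4, Chordc1 and Fkbp4, the last 3 named after their values were seen. Without D1 replicate 3 the list median was -0.121, and without D1 replicate 1 it was -0.144. D2 replicate 3, lowest for Hspa1b, was also the lowest D2 sample for Dnajb1.

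Heat shock genes are known for the element bound by HSF1, inverted repeats of GAA. The 250 bases before the start of Hspa1b, shown because its D2 samples disagreed, lie at chr17:34959239-34959488 on the minus strand of GRCm38.p6 (RefSeq). Capitals mark matches to GAANNTTC.
Hspa1b: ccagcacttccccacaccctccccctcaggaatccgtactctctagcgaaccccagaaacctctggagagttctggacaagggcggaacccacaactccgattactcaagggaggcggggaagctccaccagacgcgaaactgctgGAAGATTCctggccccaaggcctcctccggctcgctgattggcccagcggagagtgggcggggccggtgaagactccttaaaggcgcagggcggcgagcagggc
There was 1 match. These letters occurred in 6 of the 16 measured heat shock genes with a promoter sequence (37.5%) and in 7.73% of all genes. The shares describe the sequences only, since heat shock genes are known for this element.

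**Figure D2:**
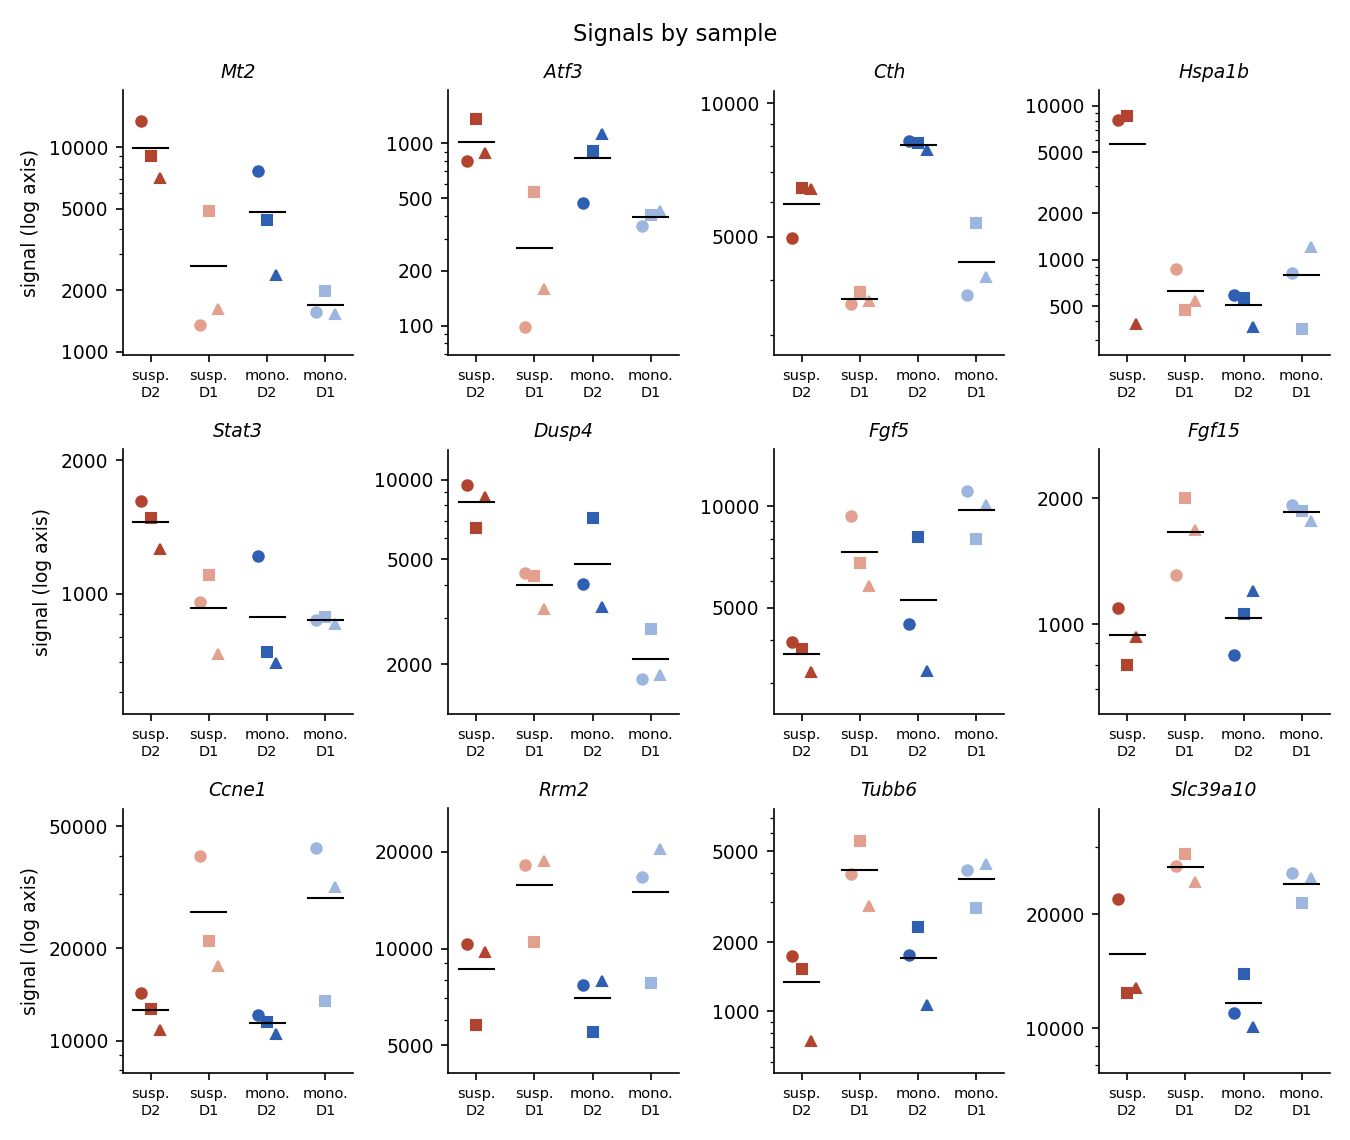
Signals (y axes, log scale) of 12 named genes in suspension D2, suspension D1, monolayer D2 and monolayer D1 samples. Circles, squares and triangles are replicates 1, 2 and 3, and bars are group means of the signals. Hspa1b is high in 2 of 3 suspension D2 samples, and the other 11 genes show no overlap between suspension D2 and suspension D1.

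The genes of naive pluripotency, the state of the early inner cell mass, had the highest median of the 40 lists. Of 10 measured members, out of 20 listed, 9 were above 0 and 0 passed, with a median of 0.55 against 0.03 over all genes. Per sample the list stood at 0.38, 0.34 and 0.09 at D2 and -0.26, -0.23 and -0.23 at D1, without overlap, and D2 replicate 3 was nearest to the D1 samples. Within the 3 wash batches its median was 0.55, 0.48 and 0.42, and after centring each array on its median it was 0.42. Tcl1, an AKT coactivator of early embryos, read 681, 829.9 and 510.2 at D2 and 399.6, 386 and 288 at D1. Stat3, the transcription factor that carries the signal of the cytokine LIF, read 1622, 1482 and 1258 at D2 and 958, 1101 and 732 at D1, a log2 difference of 0.63 ± 0.23 (adjusted p = 0.841). Its 3 probe sets lay between 0.53 and 0.99. The Krüppel-like factor genes followed, Klf5 with 1375, 1552 and 1084 at D2 and 886, 912 and 940.3 at D1, and Klf2 with 937, 1382 and 1311 at D2 and 612, 869.5 and 715 at D1. In these 4 genes, named as the members of lowest p, all D2 samples were above all D1 samples (40% of the list, against 6.26% of all genes). The groups of the other measured members overlapped. All signals of these 4 genes were under 1719, the 75th percentile of MOE430A, and a Klf5 probe set lay at -0.23. The member below 0 was Prdm14, a germ cell and pluripotency regulator, at -0.63 ± 0.54.

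Pou5f1, Sox2 and Nanog were measured at high signals and differed little. Pou5f1 read 29151, 35229 and 34755 at D2 and 28963, 32480 and 29707 at D1, a log2 difference of 0.12 ± 0.16 with a 95% interval of -0.22 to 0.45. This interval leaves out a 2-fold change in either direction. Sox2 had 5767, 6524 and 5018 at D2 and 6653, 7369 and 6300.4 at D1 (-0.23 ± 0.16), and Nanog had 7856, 5059 and 5755 at D2 and 6845, 7804 and 7073 at D1 (-0.24 ± 0.18). Their groups overlapped. Of 18 measured members of the core list 7 were above 0, with a median of -0.10, which was -0.035, -0.031 and -0.216 without D1 replicates 1, 2 and 3 in turn. Utf1, a chromatin-associated factor of pluripotent cells, read 16786, 18581 and 18989 at D2 and 14224, 14711 and 12531 at D1, and Dppa4, a DNA-binding protein of the same cells, 1495, 1371 and 1549 at D2 and 1106, 903 and 1016 at D1. Both were higher at D2 without overlap, and the 3 Utf1 probe sets ran from 0.01 to 0.94. L1td1, an RNA-binding protein, had a value of -0.33 ± 0.22 and the ubiquitin ligase gene Trim71 -0.29 ± 0.19, with overlapping groups.

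Fibroblast growth factors and their ERK feedback genes had values on both sides of 0. Of 18 measured members 12 were above 0, the median was 0.08 and 0 passed. The ligand gene Fgf5, a marker of the primed epiblast, read 3960.3, 3783 and 3223 at D2 and 9318, 6797 and 5797 at D1, a log2 difference of -0.96 ± 0.28 (adjusted p = 0.809). A second ligand gene, Fgf15, read 1092, 798 and 931 at D2 and 1309, 2002 and 1685 at D1 (-0.78 ± 0.20, adjusted p = 0.743). In both all D2 samples were below all D1 samples. Dusp4, a phosphatase that switches ERK off, read 9579, 6588 and 8622 at D2 and 4446, 4322 and 3229 at D1, a difference of 1.02 ± 0.28 without overlap (adjusted p = 0.759). Spry2, another inhibitor of the pathway, had 3123, 2866 and 3794 at D2 and 3954, 3553 and 5469.8 at D1, with D2 replicate 3 inside the D1 range. Within the wash batches Fgf5 differed by -0.76, -1.28 and -0.83 and Dusp4 by 1.13, 0.56 and 1.39. Monolayer differences of the same genes were -0.96 for Fgf5, -0.83 for Fgf15 and 1.11 for Dusp4.

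Nodal, the TGF-beta family ligand that maintains the epiblast, and its targets lay mostly below 0, with 4 of 16 measured members above 0, a median of -0.24 and 0 passed. Per sample the list stood at 0.05, -0.17 and -0.10 at D2 and 0.08, 0.22 and 0.01 at D1, so the levels overlapped. The median was -0.094 without D2 replicate 2, and -0.13, -0.48 and -0.06 within the wash batches. The ligand gene Nodal read 9039.5, 6518 and 8180.5 at D2 and 9495, 11473 and 8130.1 at D1, so its groups overlapped. The inhibitory Smad gene Smad7 had 2049, 1787 and 1215 at D2 and 2503, 2268 and 2359 at D1, and Skil, a repressor of Smad complexes, 8473, 9045 and 9335 at D2 and 10361, 13233 and 10711 at D1, both lower without overlap, although a second Skil probe set stood at 0.03. Pmepa1, a feedback inhibitor of the pathway, read 1692, 956 and 1039.7 at D2 and 1372, 2468 and 1370.1 at D1, with D2 replicate 1 above 2 of the D1 samples. Gdf3, a Nodal-related ligand, stood at -0.30 ± 0.20, and Fst, which encodes the activin antagonist follistatin, at 0.11 ± 0.37. The D2 signals of Fst, 54342, 31021 and 66636, spread over more than the D1 range of 44919, 48246 and 41631. For the BMP pathway 5 of 12 measured targets were above 0. Id1, the classical BMP target and inhibitor of differentiation factors, read 1111, 864 and 1026 at D2 and 2156, 1267 and 1980.4 at D1, a difference of -0.79 ± 0.25 without overlap, and -0.91 in monolayer.

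DNA replication genes lay slightly below 0 as a group. Of 42 measured S phase genes 33 were below 0, and the median was -0.13. Without overlap 9 were lower (21.4% of the list, against 5.82% of all genes) and 1 higher (2.38%, against 6.26%). Per sample the list stood at -0.05, -0.13 and -0.07 at D2 and 0.05, 0.09 and 0.04 at D1, groups that did not overlap but differed by little. Ccne1, which encodes cyclin E1 and drives entry into S phase, read 14264, 12690.4 and 10864 at D2 and 40109, 21130.4 and 17531 at D1 (-0.97 ± 0.35, adjusted p = 0.841). Rrm2, the small subunit of ribonucleotide reductase, read 10335, 5803 and 9791 at D2 and 18219, 10488 and 18759 at D1 (-0.87 ± 0.33). The D1 samples of both genes were spread widely, and for Rrm2 the lowest D1 signal was just above the highest D2 signal. Uhrf1, which guides DNA methylation to replicated DNA, had 4196, 3421 and 3954 at D2 and 6128, 5856 and 4683 at D1, also without overlap. Slbp, which binds the stem-loop of histone mRNA, read 5492, 3779 and 4410.3 at D2 and 7581, 5488 and 7101 at D1, with an overlap between the highest D2 and the lowest D1 sample. The replication helicase genes barely differed, with Mcm2 at -0.03, Mcm3 at 0.03 and Mcm7 at -0.09 (log2 difference, chosen after their values were seen). Within the wash batches the list median was -0.12, -0.21 and -0.11, and Rrm2 differed by -0.02, -1.64 and -0.93.

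Mitotic genes lay mostly below 0, with 32 of 43 below 0 and a median of -0.13. Without overlap 6 members were lower (14%, against 5.82% of all genes) and 0 higher (0%, against 6.26%). D2 replicate 2 was the lowest sample for 22 of the 43, and without it the median was -0.058. Espl1, which encodes separase, read 8658, 11748 and 8429 at D2 and 12993, 17506 and 11822 at D1, and Cdc20, an activator of the anaphase-promoting complex, 13149.6, 15293 and 13694 at D2 and 18499, 17612 and 16293 at D1. Incenp, a subunit of the Aurora B complex, stood at -0.32 ± 0.15 and the kinesin gene Kif22 at -0.37 ± 0.17, with other probe sets up to 0.07 and 0.04. Ribosome biogenesis genes had a median of -0.12, and 22 of 30 were below 0. The median was -0.071 without D2 replicate 2. Nucleolin, gene Ncl, read 49651, 48228 and 52504 at D2 and 59775, 62976 and 60539 at D1, and Nolc1, another nucleolar phosphoprotein, 6724, 6744 and 6273 at D2 and 8575, 9275 and 8075 at D1, lower without overlap, although Ncl probe sets ran from -0.48 to 0.80. Polr1e, a subunit of RNA polymerase I, had 1497, 1072 and 1789 at D2 and 2211, 1951 and 2319 at D1, and Rrp12, a ribosome export factor, 931, 711 and 418 at D2 and 1452, 1280.1 and 869 at D1. The cytosolic ribosomal protein genes themselves stood at a median of 0.04 over 40 genes.

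Antioxidant and iron genes of the NRF2 list had a median of -0.05. Of 20 measured members 5 were lower without overlap (25%, against 5.82% of all genes) and 1 higher (5%, against 6.26%). All 9 alternatives gave a median further from 0, between -0.193 and -0.074. Gsta4, a glutathione transferase for products of lipid oxidation, read 5980.5, 6203 and 5046 at D2 and 7628, 9612 and 8486 at D1 (-0.57 ± 0.15, adjusted p = 0.743). Txnrd1, thioredoxin reductase 1, had 6419.9, 5549 and 5114 at D2 and 9373, 7125 and 7781 at D1, and its substrate gene Txn1 had 22596, 17633 and 22762 at D2 and 24416, 28224 and 25938 at D1. Tfrc, the transferrin receptor that brings iron into the cell, read 13113, 9236 and 13126 at D2 and 14903, 16475 and 13461 at D1. In these 4 genes every D2 sample was below every D1 sample, though other probe sets of Txnrd1, Txn1 and Tfrc had the opposite sign, up to 1.06 for Tfrc.

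Genes of sterol and fatty acid synthesis lay below 0 in 22 of 25 measured members, with a median of -0.23 and 0 passed. Dhcr7, the last enzyme of cholesterol synthesis, read 2983, 2584 and 2650.2 at D2 and 4408, 4088 and 3756 at D1, a difference of -0.57 ± 0.16 without overlap (adjusted p = 0.809). The stearoyl-CoA desaturase gene Scd2 had 19337, 15759.6 and 17664 at D2 and 26091, 20819.7 and 22919 at D1, also without overlap, and its 3 probe sets ran from -0.40 to 0.52. Fasn, fatty acid synthase, stood at -0.32 ± 0.17 and Idi1, isopentenyl diphosphate isomerase, at -0.46 ± 0.25. Per sample the list level was 0.02, -0.34 and -0.04 at D2 and 0.09, 0.05 and 0.18 at D1, with D2 replicate 2 the lowest.

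Hypoxia and glycolysis genes were above 0 in 24 of 28 measured members, with a median of 0.26, but the D1 samples disagreed. The list stood at 0.08, 0.20 and 0.13 at D2 and -0.42, 0.59 and -0.51 at D1. D1 replicate 2 was therefore above every D2 sample and the other D1 samples were below them, and for 18 of 28 members that sample was the highest of the 6 (64.3%, against 16.9% of all genes). Ddit4, a hypoxia- and stress-induced inhibitor of mTOR, read 11111, 11219.7 and 9502 at D2 and 5259, 12998 and 3585 at D1. The pyruvate dehydrogenase kinase gene Pdk1 read 5569, 4033 and 5579 at D2 and 2228, 5735 and 1806 at D1, and the phosphofructokinase gene Pfkl 25432, 32149 and 23288 at D2 and 14136, 30629 and 11424 at D1. In each, D1 replicates 1 and 3 were below all D2 samples and D1 replicate 2 was among them or above, and the lowest probe sets of Pdk1 and Pfkl stood at -0.08 and -0.04. Vegfa, the angiogenic factor, had 1776, 2005 and 2087 at D2 and 1042, 1531 and 1328 at D1 and did not overlap. In monolayer D1, replicate 2 was also the highest sample for all 4 genes. The signals there were 1962, 10457 and 4308 for Ddit4, 1276, 3405 and 2177 for Pdk1 and 8887, 31354 and 9910.2 for Pfkl. Vegfa read 946, 2083 and 1606 there. Replicate 2 was the highest in monolayer D2 too. The signals were 4741, 8879 and 4877 for Ddit4, 2009, 3551 and 1209.8 for Pdk1 and 23507, 30223 and 19196 for Pfkl. Vegfa read 1904, 2811 and 2178. In all 4 groups the sample numbered 2 was thus the highest for Ddit4 and Pfkl, by a small margin for Ddit4 in suspension D2, while for Pdk1 it was the lowest in suspension D2. For Vegfa it was the highest in every group but suspension D2, where replicate 3 was higher. In suspension D2 the record of the sample numbered 2 named another fluidics station than those of the samples numbered 2 of the other groups. The part of the shared replicate number or of the wash station was not tested. Within the wash batches the list median was -0.52, 0.68 and 0.61, so its sign depended on the D1 sample. With D1 replicates 1, 2 and 3 left out in turn the list median was 0.105, 0.639 and 0.147.

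**Figure D3:**
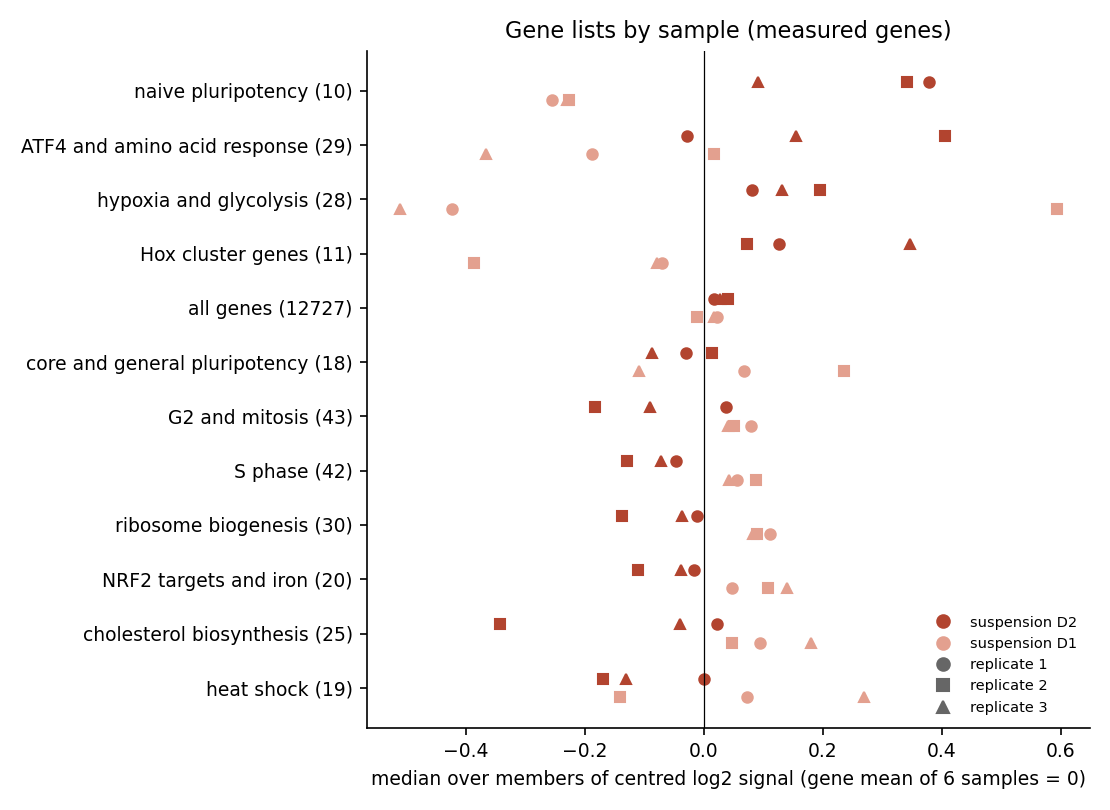
Level of 12 gene sets in the 3 suspension D2 samples (upper row of each set) and the 3 suspension D1 samples (lower row), as the median over members of the log2 signal after the mean of the 6 samples was taken away. Numbers in brackets count measured genes. Levels do not overlap between the stages for naive pluripotency, Hox cluster genes, S phase, G2 and mitosis, ribosome biogenesis, NRF2 targets and cholesterol biosynthesis. For G2 and mitosis the margin is narrow, 0.038 at most at D2 against 0.040 at least at D1. The hypoxia level of D1 replicate 2 is 0.59.

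Genes of later lineages were mostly dim, and D1 replicate 2 was the lowest sample for many of them. Of 12 measured mesoderm and muscle genes 9 were above 0, with a median of 0.28, and D1 replicate 2 was the lowest of the 6 samples for 9 of them (75%, against 21.6% of all genes). Without that sample the list median was 0.01, and those of blood cell markers and Hox genes were 0.005 and 0.20, against 0.41 and 0.38 with it. Actc1, cardiac alpha-actin, read 1003, 1206 and 732 at D2 and 601, 398 and 636 at D1, and Gata4, a transcription factor of heart and endoderm, 529, 642 and 782 at D2 and 442, 272 and 467 at D1, higher without overlap. The heart factor Nkx2-5 had 785, 1210.2 and 1476 at D2 and 749.7, 699 and 895 at D1. Among primitive streak genes, whose median was 0.14 over 18 genes, Sp5, a target of Wnt signals, read 2603, 965 and 1441 at D2 and 669.6, 571 and 548 at D1, a difference of 1.30 ± 0.48 without overlap. Foxa2, the endoderm pioneer factor, read 1746, 1092 and 1581 at D2 and 1833, 2070.3 and 2390.5 at D1, lower without overlap at -0.51 ± 0.27. The Notch ligand gene Dll1 had 1005, 1253 and 988 at D2 and 819.5, 806 and 778 at D1. Homeobox cluster genes had a median of 0.38 over 11 measured of 29 listed, with Hoxa5 at 0.81 ± 0.41 and Hoxc6 at 0.34 ± 0.16. Hoxd3 was lower, with 696, 657 and 339 at D2 and 1093, 971 and 1573 at D1. Hoxb2 read 468, 763 and 396 at D2 and 171, 242 and 274 at D1, so all its signals but that of D2 replicate 2 lay below the chip's median.

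Endoderm markers had a median of 0.00 over 17 genes. Without overlap 4 were higher (23.5%, against 6.26% of all genes) and 1 lower (5.88%, against 5.82%). Apoe, the lipid carrier apolipoprotein E, read 6737, 8295 and 6216 at D2 and 2409, 5131 and 2899.6 at D1, a log2 difference of 1.08 ± 0.34 in suspension beside 1.08 in monolayer. Gata6, the transcription factor of primitive endoderm, read 1232, 916 and 1037 at D2 and 545, 741 and 868 at D1, and the hedgehog ligand gene Ihh 787, 722 and 997 at D2 and 554, 544 and 609 at D1. The neural list stood at a median of 0.14 over 12 genes, where the neuronal tubulin gene Tubb3 had -0.44 ± 0.28 and the factor gene Neurod1 0.80 ± 0.44, both with overlap. Retinoic acid response genes had 2 of 9 measured members above 0 and a median of -0.17. Meis2, a homeobox target of retinoic acid, read 4990.1, 4256 and 5738 at D2 and 7764, 6204 and 5798 at D1, lower by a narrow margin. The primed epiblast list stood at -0.11 over 15 genes, and for 8 of them D1 replicate 2 was the highest sample. Wnt targets stood at 0.04 over 15 genes and Notch genes at 0.07 over 12, with the receptor gene Notch1 at 0.47 ± 0.40.

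Markers of other cells that the culture could hold gave overlapping sums in most lists. Summed over the measured members, fibroblast markers gave between 8555 and 10858 at D2 and between 8056 and 11785 at D1 (8 of 18 listed genes), and trophoblast markers between 15239 and 16327 at D2 and between 14857 and 19802 at D1 (11 of 20). Blood cell markers gave between 7521 and 8221 at D2 and between 5082 and 7312 at D1 (9 of 19), without overlap, and none of these 9 genes had a group mean above the 75th percentile of its chip's signals. The sums over 17 primitive and visceral endoderm genes were between 24768 and 30077 at D2 and between 21757 and 25762 at D1. Neural markers summed to between 16560.3 and 19424 at D2 and between 15222 and 20744 at D1 (12 of 26), and mesoderm and muscle markers to between 12082 and 13086 at D2 and between 7837 and 13182 at D1 (12 of 25). In bulk RNA fewer cells of a type and less RNA per cell cannot be told apart. Endothelial markers (3 of 11 listed genes) and germ cell markers (5 of 14) overlapped between the stages, with list medians of -0.10 and 0.42. The part of other cells in the results was not tested.

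The cytoskeleton and adhesion genes stood near 0. Actb, beta-actin, had a difference of -0.12 ± 0.15 and Cdh1, the gene of E-cadherin that holds aggregates together, one of 0.10 ± 0.27, with 2469, 3195 and 2297 at D2 and 2459, 3185 and 1854 at D1. Ccn2, a secreted target of YAP, differed by 0.01 ± 0.20 with a 95% interval of -0.42 to 0.44. Of 36 measured SRF, YAP and actin genes 21 were above 0, with a median of 0.02. Without overlap 4 were higher (11.1%, against 6.26% of all genes) and 2 lower (5.56%, against 5.82%). Tmsb4x, which encodes the actin-sequestering thymosin beta 4, read 2910.4, 4025 and 2965 at D2 and 6671, 4955 and 5588 at D1, lower without overlap, and the serum response factor gene Srf 1817, 1717 and 1189 at D2 and 2056, 2281 and 2007 at D1. Among 23 epithelial genes with a median of 0.11, the tight junction gene Cldn6 read 3736, 3088 and 2928 at D2 and 2071, 2708 and 2646 at D1. Esrp1, an epithelial splicing regulator, had 974, 1225 and 797 at D2 and 613, 805 and 363 at D1, with a slight overlap. Matrix and integrin genes had a median of 0.07 over 25 genes, and the basement membrane collagen gene Col18a1 read 835, 772 and 616 at D2 and 1004, 1315 and 1539 at D1, lower without overlap, and its probe sets stood at -0.74 and -0.73. Genes of the mesenchymal transition stood at 0.16 over 11 genes, with the fibronectin gene Fn1 at 0.46 ± 0.20 and the matrix protease gene Mmp14 at -0.39 ± 0.18, whose other probe set stood at 0.75.

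Cell death, damage and housekeeping lists mostly had medians near that of all genes. The p53 targets had a median of -0.14 over 16 genes. Without overlap 3 were higher (18.8%, against 6.26% of all genes) and 3 lower (18.8%, against 5.82%). Aen, a p53-induced nuclease, read 3342, 2564 and 2751 at D2 and 4696, 3534 and 4941 at D1, and Gtse1, a mitotic regulator of p53, 1398, 934 and 954 at D2 and 1920.3, 1404 and 1560.4 at D1, both lower, although an Aen probe set stood at 0.26. The stress-induced mTOR inhibitor gene Sesn2 had 1515, 2348 and 1608 at D2 and 1412, 1556 and 1084 at D1, with overlap. Of 19 apoptosis genes with a median of 0.04, Cycs, which encodes cytochrome c, read 17464, 14824 and 18582 at D2 and 23934, 20103 and 25759 at D1. The survival gene Bcl2 read 1046, 1136 and 319 at D2 and 1761, 1926 and 1164 at D1, but its probe sets ran from -0.99 to 1.33. Apaf1 was higher without overlap, with 962, 1038 and 1047.5 at D2 and 760.5, 759 and 916 at D1. In all 2 members were higher without overlap (10.5%, against 6.26% of all genes) and 2 lower (10.5%, against 5.82%). Immediate early genes stood at 0.11 over 18 genes, with Ier2 at -0.37 ± 0.16 and Klf6 at 1.10 ± 0.64, whose probe sets ran from -1.05 to 1.16. Oxidative phosphorylation genes of the nucleus had a median of -0.07 over 48 genes. Without overlap 6 were lower (12.5%, against 5.82% of all genes) and 2 higher (4.17%, against 6.26%). Among the lower was the complex III gene Uqcrh with 32745, 33535 and 33172 at D2 and 40719, 50989 and 41589 at D1. Of 40 ribosomal protein genes D2 replicate 3 was the highest sample for 30 and D2 replicate 1 the lowest for 25, so the D2 samples themselves stood apart. DNA methylation and Polycomb genes had a median of 0.04 over 27 genes. Without overlap 1 was higher (3.7%, against 6.26% of all genes) and 2 lower (7.41%, against 5.82%). Eed, a core subunit of Polycomb complex 2, was lower, with 3397, 3425 and 2895 at D2 and 5093, 4269 and 3767 at D1. The higher one was Rnf2, with 4917.5, 5006 and 5160 at D2 and 3298, 4826 and 3395.5 at D1. Imprinted genes stood at 0.22 over 16 genes.

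Other genes were named by the lowest p among bright genes without overlap, a choice that leaves out probe sets of lower p. Tubb6, a beta-tubulin, read 1747, 1526 and 745 at D2 and 3963, 5552 and 2878 at D1, a log2 difference of -1.62 ± 0.34 (adjusted p = 0.684), and both of its probe sets were below 0. Zdhhc7, a palmitoyltransferase, read 705, 1017 and 368 at D2 and 1697, 1675 and 1821 at D1 (-1.35 ± 0.27), so that the D1 samples were close together and D2 replicate 3 was the lowest. Kmt5a, the histone H4 lysine methyltransferase of mitosis, had 1984, 2080 and 2032 at D2 and 3656, 3043 and 3398 at D1 (-0.71 ± 0.18), and Thop1, an oligopeptidase, 2986, 2191 and 3175 at D2 and 4700.1, 3964 and 4150.2 at D1. The ubiquitin ligase gene Trim45 read 345, 443 and 534 at D2 and 1579, 2357 and 2204 at D1, where all D2 signals were below the chip's median of 846.4. Igf2r, the receptor that clears IGF2, read 1735, 2103 and 1368 at D2 and 996, 913 and 642 at D1, and its 2 probe sets stood at 0.88 and 0.99. Impact, named as a member of the imprinted list and an inhibitor of the amino acid sensor GCN2, read 7365, 11225 and 9275 at D2 and 3576, 6964 and 3718 at D1 (1.01 ± 0.31), with probe sets from -0.49 to 1.01. The other genes of the higher side were 6820431F20Rik, Arhgap27, Zfp24, Pyroxd2, Gtpbp10, Brd8, Prss2, Bri3 and Uap1l1, with log2 differences between 0.74 and 2.16. On the lower side Iqsec2, Lars2, Sult4a1, Ankrd44 and Slc10a7 ran between -1.76 and -0.53. Probe sets of opposite sign were found for Zfp24, Pyroxd2, Brd8, Iqsec2, Lars2, Ankrd44 and Slc10a7, which makes their values uncertain.

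Whether suspension differed from monolayer in its change between the stages was tested as an interaction. None of the 26516 probe sets passed (0%, smallest adjusted p = 0.836, and 966 with an unadjusted p under 0.05, fewer than the 1326 expected by chance). Across the 12727 genes the suspension and monolayer differences, which share no samples, correlated with Pearson's r = 0.199, and genes are not independent replicates. Galnt6, a glycosyltransferase of mucin-type glycans, was among the 3 genes named on the lower side, with Zdhhc7 and Oga. It read 1734, 1709 and 1738 at D2 and 3161, 3192 and 2813 at D1 in suspension, and 1548, 1184 and 1044 at D2 and 652, 432 and 406 at D1 in monolayer. All suspension D2 signals were below all suspension D1 signals, while all monolayer D2 signals were above all monolayer D1 signals, and the difference between the cultures was -1.97 ± 0.44 (adjusted p = 1). Oga, the enzyme that removes O-GlcNAc from proteins, differed by -0.53 in suspension and 0.36 in monolayer, but its 5 probe sets ran from -0.53 to 0.26 in suspension. On the higher side stood Zfp24 (1.39 in suspension, -0.66 in monolayer), Pyroxd2 (2.16 and -0.37) and the folate enzyme gene Fpgs (0.23 and -0.45).

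The list medians of the cultures are set side by side without a test of their likeness. The S phase median was -0.13 in suspension and -0.13 in monolayer, and the sterol median -0.23 in suspension and -0.29 in monolayer. The ATF4 list stood at 0.38 in suspension and 0.87 in monolayer, ER chaperones at 0.08 in suspension and 0.60 in monolayer, and cytosolic tRNA synthetases at 0.02 in suspension and 0.32 in monolayer. Naive pluripotency stood at 0.55 in suspension and 0.18 in monolayer. The lists differed in sign for Hox cluster genes (0.38 in suspension and -0.01 in monolayer), blood cell markers (0.41 in suspension and -0.08 in monolayer) and p53 targets (-0.14 in suspension and 0.10 in monolayer), among others. These signs are uncertain. The suspension median of p53 targets changed sign under 5 of 9 alternatives, and that of blood cell markers was 0.005 without D1 replicate 2. The all-gene median in monolayer was -0.005, close to that of Hox genes. No gene of these lists passed the interaction test. Cebpb, a stress factor of the ATF4 list chosen after its values were seen, differed by 0.98 ± 0.38 in suspension, and the difference between the cultures was -1.22 ± 0.53 (adjusted p = 1).

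**Figure D4:**
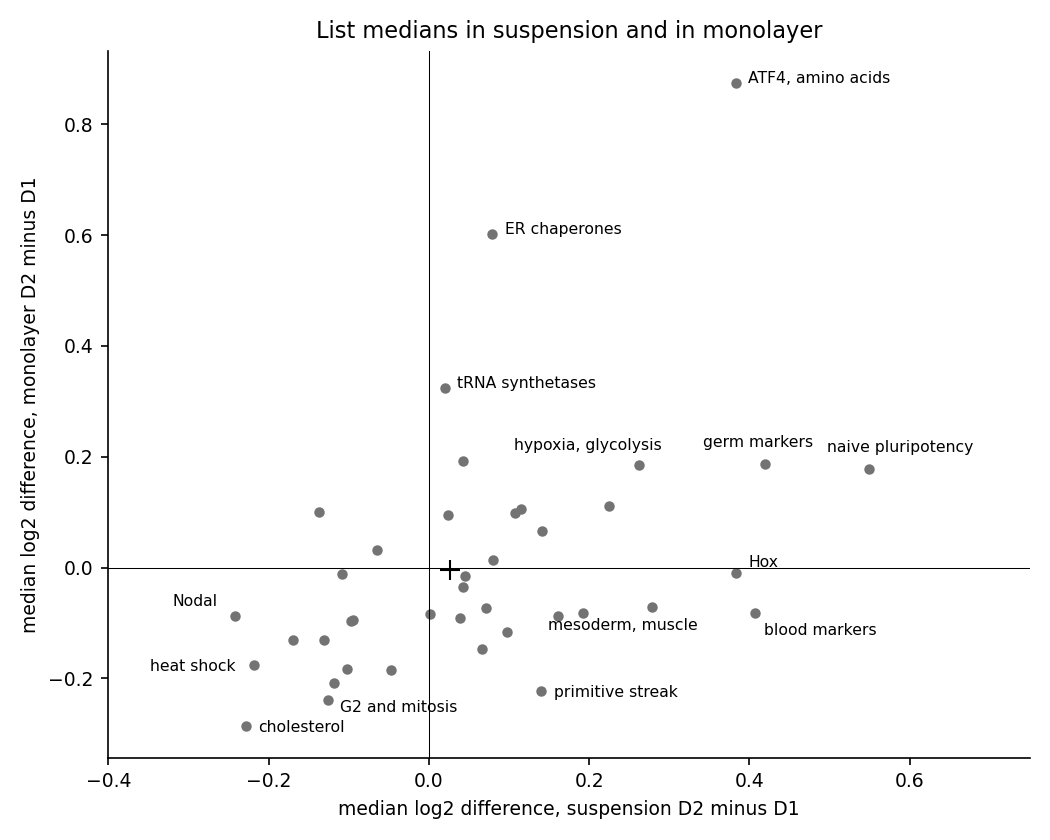
Median log2 difference between D2 and D1 of each of the 40 gene lists in suspension (x axis) and in monolayer (y axis). The cross marks all 12727 genes, at 0.03 and 0.00. The ATF4 list has the highest monolayer median and naive pluripotency the highest suspension median.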

How the data were processed

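RNA of P19 cells was read on Affymetrix MOE430A and MOE430B chips, and the series' value tables of both chips were used. The deposited values are signal intensities on a linear scale, which the authors made with the MAS5 algorithm (version not given in the sources used here), per the submitters' processing notes. On every array the 2% trimmed mean lay near 1500, so each array had been scaled. The rule for the comparison asks for the log2 of the deposited signal; an offset of 51.0 (MOE430A) or 108.1 (MOE430B), the 10th percentile of the chip, was added before log2 because dim values vary most on that scale. No further normalization was applied. Probe sets at or above the median of all signals (599.8 and 846.4) on at least 3 arrays were kept, 12689 and 13827 of them. Linear models (limma 3.58.1 in R 4.3.3) were fitted per chip over all 12 samples in 4 groups of 3, with a mean-variance trend, and p-values of both chips were adjusted together by Benjamini-Hochberg at 0.05. The fitting code was tested on simulated data. Of the probe sets, 35067 had 1 gene symbol, 936 several and 9262 none, and only the first were named. Promoters of chromosome 18 were not searched. A gene was represented by its probe set of highest mean signal.

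Because no probe set passed, the rule named the 12 bright genes of each direction with the lowest p and no overlap between groups, 3 of each direction for the difference between the cultures, the 4 members of each list with the lowest p, and 8 always-named genes. A bright gene had a group mean above the 75th percentile of its chip. The 40 lists, the comparison and this rule were chosen with earlier results of these data known. Overlap means that the highest of the lower group reached the lowest of the other. The number of arrays limits the precision. Alternatives changed the offset, the filter, the scaling, the wash batch, the replicate block, the array weights, the trend and the samples included.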

Additional observations from a re-analysis of the deposited data

How the results depend on the processing

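No probe set passed between D2 and D1 in suspension under any of 13 alternatives that did not leave out a single replicate, and the smallest adjusted p in limma ran from 0.0553 (without the later wash batch) to 0.721 (the 6 suspension samples alone). With the replicate block 0 passed as well (smallest adjusted p = 0.0971, with 2503 unadjusted p under 0.05), and with the block among the 6 suspension samples 0 passed (0.1). Same-numbered samples of suspension D2 and suspension D1 deviated together with correlations of 0.0995, 0.25 and 0.32 on MOE430A and 0.00977, 0.101 and 0.13 on MOE430B. Every suspension D2 sample correlated best with the suspension D1 sample of its own number except number 1 on MOE430B. The main fit did not use the replicate numbers, because the labels name no pairing. What same-numbered samples share was not tested. Leaving out 1 replicate at a time gave 0 to 2 probe sets, the 2 being those of Hspa1b without suspension D2 replicate 3, and 0 to 2 higher at D2. For the difference between suspension and monolayer 0 passed under the alternatives except without a mean-variance trend, where 1 unnamed probe set did (adjusted p = 0.0359). The cause was not tested. Of 3289 gene values under alternatives, 3272 kept their direction and side of the threshold, 1 of Hspa1b newly passed and 16 in 7 genes had the opposite sign. Without the later wash batch Bambi stood at 0.16, Plet1 at -0.078 and Fst at -0.18. With array weights Plet1 stood at -0.057, with quantile normalization Ccn2 at -0.056, and with median centring Pou5f1 stood at -0.028, Cdh1 at -0.041 and Ccn2 at -0.14. Leaving out 1 replicate at a time gave Bambi between -0.59 and 0.056, Kdr between -0.17 and 0.55, Cdh1 between -0.090 and 0.29, Ccn2 between -0.11 and 0.22 and Fst between -0.13 and 0.42. Of the 40 list medians 20 kept 1 sign under all 9 alternatives of scaling, batch and replicates run on them, among them naive pluripotency (0.42 to 0.59), ATF4 (0.24 to 0.52), S phase (-0.26 to -0.11) and sterol synthesis (-0.32 to -0.16), and 20 had the other sign somewhere. With 1 suspension replicate left out, 35 of the 40 medians moved by over 1.5 times or changed sign for at least 1 replicate. The 5 that did not were naive pluripotency, ATF4, S phase, sterol synthesis, and integrins and matrix. The all-gene median was -0.06 after median centring, against 0.03. For 67.3% of genes the 95% interval excluded a 2-fold difference in either direction, and the rest are measured less closely. Dim genes such as Atf3, Hoxb2 and Nupr1 have uncertain ratios.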
